A study of Homo sapiens with 96 samples.

Results

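Neuron and astrocyte co-cultures exposed to fluoxetine at IC5 were compared with those exposed to methyl mercury at IC5, 8 libraries of each, which are 16 of the 96 libraries of the study. The members were taken by their column names in the deposited table. Fluoxetine, given as the hydrochloride, is an antidepressant that blocks the serotonin transporter, and methyl mercury, given as the chloride, is an organic mercury compound that harms the developing brain. All cultures were grown from neural progenitors of H9, a widely used and established line of human embryonic stem cells, and RNA was collected on day 10 of differentiation. Both compounds came in dimethyl sulfoxide (DMSO), and the medium held 0.25% of it, so the vehicle was the same on both sides. IC5 is read here as the concentration with 5% inhibition. The same compounds at a lower concentration, IC20/100 (read as the 20% concentration diluted 100-fold), and 8 libraries of unexposed day 10 co-cultures are given beside them. The sources used here do not state molar concentrations, the length of exposure or whether the unexposed controls held DMSO. In any comparison with controls, an effect of DMSO therefore cannot be told apart from that of a compound. Each group's 8 libraries were technical replicates from 1 experiment, and p-values therefore reflect their spread alone, not that of separate cultures.

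Polyadenylated RNA was sequenced in 6 runs, each of which held 1 or 2 libraries of either group. Recovered reads ranged from 11.3 to 25.4 M per fluoxetine library and from 14.9 to 26.0 M per methyl mercury library. Values are the deposited read counts divided by a size factor per library (normalized read counts), and errors on means are SD over 8 libraries. Differences are fluoxetine minus methyl mercury on log2 of the value plus 2, given ± SE, a scale that understates the change of low genes. A gene passed the test at an adjusted p under 0.05 in limma, over the 20136 genes that reached 10 in 8 or more of the 88 day 10 libraries. Among markers of the labelled cell types, the 8 neuron markers summed to 87430 ± 2361 in fluoxetine and 79660 ± 2898 in methyl mercury. Of 6 astrocyte markers, GFAP (11.4 ± 8.28 and 25.4 ± 14.3), S100B, ALDH1L1 and AQP4 were low in both groups, while GJA1 averaged 154 and 135 and the glutamate transporter gene SLC1A2 2667 and 2650. Their sum was 2861 ± 189 and 2843 ± 856. The microglial gene TYROBP was at 0 in all 16 libraries. Replicate 8 of methyl mercury IC20/100 stood apart from the other day 10 libraries, with a deposited total of 20.95 M normalized reads where the others had at most 18.99 M. It belongs to the lower concentration but also enters the shared estimate of spread, and values without it are given beside the main results at that concentration.

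Cells that run short of amino acids, or that carry misfolded protein in the endoplasmic reticulum, slow translation and make more of the transcription factor ATF4. ATF4 then switches on genes that import and synthesize amino acids, charge transfer RNA and, together with CHOP, can promote cell death. Cholesterol synthesis is set by SREBP2, a factor held in the endoplasmic reticulum by INSIG1 and released when membrane sterol is low.

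The sequences below are shown because genes of these pathways were among those that differed between the compounds. They are the 250 bases before a transcript start listed by RefSeq (GRCh38.p14). That start is not always the outer end of the GENCODE gene span, which is given with the values of some genes. The sequences of CHAC1, ASNS, SLC1A5 and SREBF2 lie within or across that span. They are written 5′ to 3′ on the strand of the gene. Capitals mark the core of the C/EBP-ATF response element (TGATGNAA on either strand) in the 3 amino acid genes and the sterol regulatory element (TCACNCCAC on either strand) in SREBF2, which encodes SREBP2. CHAC1 lies at chr15:40953221-40953470, plus strand, and ASNS at chr7:97872409-97872658, minus strand. ASNS is 1 of 2 listed windows and SLC1A5 1 of 3, in each case the one that holds the motif. SLC1A5 is at chr19:46784815-46785064, minus strand, and SREBF2 is at chr22:41832855-41833104, plus strand.
CHAC1: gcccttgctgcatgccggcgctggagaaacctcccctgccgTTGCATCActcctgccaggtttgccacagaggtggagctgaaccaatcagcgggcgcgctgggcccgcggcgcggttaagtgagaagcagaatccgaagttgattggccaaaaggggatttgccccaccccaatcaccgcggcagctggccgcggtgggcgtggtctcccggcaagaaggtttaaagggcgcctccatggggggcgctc
ASNS: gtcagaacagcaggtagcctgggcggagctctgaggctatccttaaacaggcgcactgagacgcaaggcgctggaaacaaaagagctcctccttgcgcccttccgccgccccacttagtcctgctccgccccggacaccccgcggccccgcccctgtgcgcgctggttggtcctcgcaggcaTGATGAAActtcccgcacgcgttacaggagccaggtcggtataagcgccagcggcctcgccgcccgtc
SLC1A5: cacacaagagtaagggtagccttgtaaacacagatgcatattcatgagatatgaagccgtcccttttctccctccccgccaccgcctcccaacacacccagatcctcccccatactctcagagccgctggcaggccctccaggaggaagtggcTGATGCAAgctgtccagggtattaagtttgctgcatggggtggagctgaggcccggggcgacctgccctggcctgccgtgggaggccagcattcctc
SREBF2: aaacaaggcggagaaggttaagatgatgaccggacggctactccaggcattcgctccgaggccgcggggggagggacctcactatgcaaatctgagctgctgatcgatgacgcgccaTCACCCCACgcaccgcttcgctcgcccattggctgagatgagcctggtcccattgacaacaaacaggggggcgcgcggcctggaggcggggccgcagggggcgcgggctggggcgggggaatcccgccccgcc
The response element core was found in 11 of the 52 amino acid and ATF4 genes that have a listed promoter (65 genes in 4 lists), which is 21.2%, against 3.89% of all 27305 genes with a listed promoter, counting a gene with a match in any of its windows. Of all 35116 windows, 3.14% held it. The sterol element was found in 1 of 30 sterol genes with a listed promoter (38 genes), SREBF2, against 1.09% of all genes and 0.883% of all windows. Both are matches of letters in a window and do not show binding. The 4 lists were assembled around the amino acid and ATF4 response and include genes that did not differ. Their share is therefore not a result about the compounds.

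Of the 20136 genes tested, 1670 differed between the compounds (8.29%). Of these, 866 were higher in fluoxetine (4.3%) and 804 were lower (3.99%). In 281 genes (1.4%) the difference was at least 1.5-fold, 177 higher and 104 lower. The direction was the same in all 6 runs for 1312 of the 1670 genes, counted in the same libraries on which they were called. The 8 values of 1 group all lay above the 8 of the other in 499 genes (2.48%), with fluoxetine above in 306 and methyl mercury above in 193. Over all genes the median log2 difference was -0.0034. Counts of list members below are read against the 4.3% higher and 3.99% lower among all genes, at which short lists hold few calls.

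Genes of the amino acid response were lower in fluoxetine than in methyl mercury. SLC7A11, the cystine importer that feeds glutathione synthesis (chromosome 4, 138164097 to 138242349), ranged from 56.5 to 116 in fluoxetine (median 90.1) and from 409 to 716 in methyl mercury (median 567). Every methyl mercury library lay above every fluoxetine library, and the controls, at 440 to 851, overlapped the methyl mercury libraries. The difference between the compounds was -2.63 ± 0.13 (adjusted p = 7.52e-28), a fold of 6.20. Against controls, methyl mercury differed by -0.41 ± 0.13 (limma, adjusted p = 0.0311) and fluoxetine by -3.04 ± 0.13. CHAC1, an enzyme that degrades glutathione (chromosome 15, 40952962 to 40956519), ranged from 56.9 to 90.8 in fluoxetine (median 67.4) and from 163 to 215 in methyl mercury (median 179). The groups did not overlap and both were below the controls, which ranged from 294 to 461. The difference was -1.37 ± 0.11 (adjusted p = 1.71e-16).

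Of 20 genes of the ATF4 and CHOP program, 19 were measured, 14 were lower in fluoxetine and 0 were higher. The median difference was -0.71. CEBPB, a transcription factor that pairs with ATF4 and CHOP, had 19.8 ± 3.00 in fluoxetine and 75.1 ± 8.57 in methyl mercury (-1.82 ± 0.13). ATF5, an ATF4 relative induced by the same stress, had 311 ± 33.6 and 726 ± 85.2 (-1.21 ± 0.10). DDIT3, which encodes CHOP, had 223 ± 15.7 and 348 ± 45.4 (-0.63 ± 0.11, adjusted p = 2.38e-05), and TRIB3, a pseudokinase that it induces, had 150 ± 12.0 and 271 ± 42.1 (-0.83 ± 0.13). ATF3, another stress-induced factor, had 284 ± 47.9 and 391 ± 78.2 (-0.46 ± 0.15, adjusted p = 0.0378), a call lost without fluoxetine replicate 2, 4, 6 or 7 or methyl mercury replicate 1, 2, 3, 5 or 6. Genes of the list were lower than in controls with both compounds, in 17 genes for fluoxetine and 16 for methyl mercury, where 5.94% and 6.06% of all genes tested were lower (5.47% and 4.85% were higher, 11.4% and 10.9% passed in all). The median difference from controls was -1.30 for fluoxetine and -0.57 for methyl mercury. For CEBPB, ATF5, DDIT3, TRIB3 and ATF3, methyl mercury at the lower concentration differed from controls by -1.75, -1.73, -1.25, -1.61 and -1.34. At IC5 methyl mercury differed by -0.70, -0.87, -0.68, -0.83 and -0.57. Fluoxetine differed by -2.21, -1.82, -1.47, -1.75 and -1.25 at the lower concentration and by -2.53, -2.08, -1.30, -1.66 and -1.03 at IC5. These comparisons share the 8 control libraries. Whether DMSO had a part in the differences from controls was not tested.

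**Figure D1:**
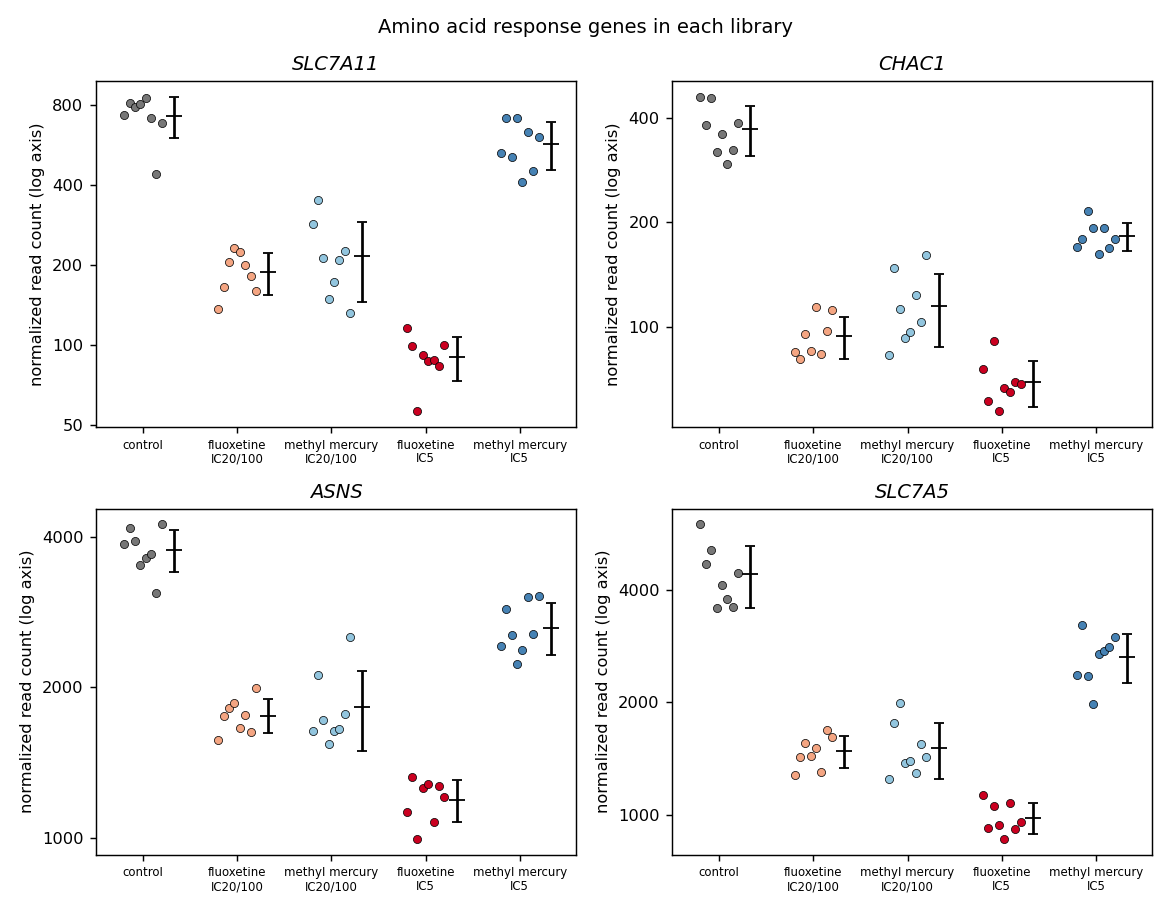
Normalized read counts (log axis) of SLC7A11, CHAC1, ASNS and SLC7A5 in controls and in both compounds at both concentrations; each point is a library and the bars are the mean ± SD of 8. In all 4 genes the 8 fluoxetine IC5 libraries lie below the 8 methyl mercury IC5 libraries, and the means of both IC20/100 groups lie between those of the IC5 groups.

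Enzymes of serine, folate and asparagine metabolism were lower in fluoxetine in 11 of 15 measured genes and higher in 0, with a median of -0.54. ASNS, which makes asparagine (chromosome 7, 97852118 to 97872542), ranged from 996 to 1324 in fluoxetine (median 1236) and from 2230 to 3040 in methyl mercury (median 2551). There was no overlap, and the controls were higher than both, at 3092 to 4228. The difference was -1.13 ± 0.07 (adjusted p = 3.61e-22). MTHFD2 and SHMT2, mitochondrial enzymes of folate metabolism, differed by -1.05 ± 0.08 and -0.93 ± 0.07. PSAT1, an enzyme of serine synthesis, had 1911 ± 106 and 3356 ± 219 (-0.82 ± 0.04). PCK2, a mitochondrial enzyme that makes phosphoenolpyruvate and belongs to none of the lists, had 75.2 ± 15.0 and 263 ± 52.5 (-1.74 ± 0.17).

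Among 12 amino acid transporters, 8 were lower in fluoxetine and 0 were higher (median -0.51). SLC7A5, the light chain of the leucine transporter, ranged from 861 to 1129 in fluoxetine (median 948) and from 1983 to 3218 in methyl mercury (median 2720). The groups did not overlap, and the difference was -1.39 ± 0.11 (adjusted p = 9.23e-18). The glycine transporter SLC6A9 had 120 ± 21.1 and 258 ± 48.7 (-1.08 ± 0.13). Aminoacyl-tRNA synthetases, which charge transfer RNA, were lower in 11 of 19 genes and higher in 0, with a median of -0.20. The synthetases for cysteine, tyrosine and glycine, CARS1, YARS1 and GARS1, differed by -0.78 ± 0.13, -0.59 ± 0.04 and -0.53 ± 0.08.

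Endoplasmic reticulum chaperones and XBP1 targets differed less. Of 18 genes, 6 were lower in fluoxetine and 0 were higher, with a median of -0.10. XBP1, the factor that drives chaperone genes, had 891 ± 53.2 in fluoxetine and 1206 ± 79.7 in methyl mercury (-0.44 ± 0.06). The chaperone HSPA5 had 6139 ± 158 and 6722 ± 202 (-0.13 ± 0.04, adjusted p = 0.0121), and the folding enzymes PDIA4 and PDIA6 differed by -0.18 ± 0.05 and -0.15 ± 0.04. HSPA5 had 5916 ± 188 in controls, so that the methyl mercury mean was the highest of the 3. Of 20 p53 targets, 4 were lower in fluoxetine and 0 were higher (median -0.18), and the count was 7 without the methyl mercury IC20/100 library that stood apart. Over all genes, 1150 of 20118 were lower without that library, against 804 of 20136 with it. AEN, a nuclease of apoptosis, had 714 ± 57.0 and 1024 ± 46.6 (-0.52 ± 0.05), and TNFRSF10B, a death receptor, had 1988 ± 72.2 and 2407 ± 155 (-0.27 ± 0.05). CDKN1A, the cell cycle inhibitor p21, had 981 ± 93.6 and 1333 ± 201 (-0.42 ± 0.13, adjusted p = 0.0274), and its call was lost without fluoxetine replicate 3 or 5 or methyl mercury replicate 2, 3, 6 or 8. PMAIP1, which encodes the cell death protein NOXA and belongs to none of the lists, ranged from 59.5 to 113 in fluoxetine (median 77.3) and from 152 to 223 in methyl mercury (median 201), with no overlap (-1.25 ± 0.10).

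Cholesterol synthesis was the list with the most members higher in fluoxetine. Of 20 enzymes, all measured, 19 were higher and 0 were lower, with a median of 0.45. DHCR7, the enzyme of the last step of cholesterol synthesis by way of 7-dehydrocholesterol (chromosome 11, 71428193 to 71452868), ranged from 1704 to 2392 in fluoxetine (median 1993) and from 799 to 1332 in methyl mercury (median 1091). There was no overlap, and the controls, at 899 to 1317, lay within the range of the methyl mercury libraries. The difference was 0.93 ± 0.09 (adjusted p = 9.82e-14). HMGCS1, which makes the precursor of mevalonate (chromosome 5, 43289395 to 43313512), ranged from 31780 to 35760 (median 34000) and from 19160 to 21710 (median 21160), with controls in between at 22820 to 25720. The difference was 0.71 ± 0.04 (adjusted p = 5.18e-23). The enzymes LSS and MVD differed by 0.87 ± 0.17 and 0.74 ± 0.12. Against controls, 18 of the 20 were higher with fluoxetine and 0 were lower. With methyl mercury, 1 was higher and 7 were lower.

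Of 17 measured regulators of sterol balance, 6 were higher and 2 lower in fluoxetine, and 9 did not pass (median 0.12). INSIG1, itself a target of SREBP2, ranged from 1927 to 2348 in fluoxetine (median 2136) and from 1076 to 1333 in methyl mercury (median 1239), with no overlap (0.79 ± 0.05). STARD4, a cholesterol carrier, differed by 0.71 ± 0.09. SREBF2, whose promoter is printed above and which was picked after its values were seen, had 13660 ± 357 and 11070 ± 825 (0.32 ± 0.06). ABCA1, which exports cholesterol, was lower in fluoxetine, at 1696 ± 81.2 against 2286 ± 159 (-0.43 ± 0.07). NPC1, which releases cholesterol from lysosomes, had 950 ± 56.0 and 851 ± 61.1 and did not pass (adjusted p = 0.255).

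**Figure D2:**
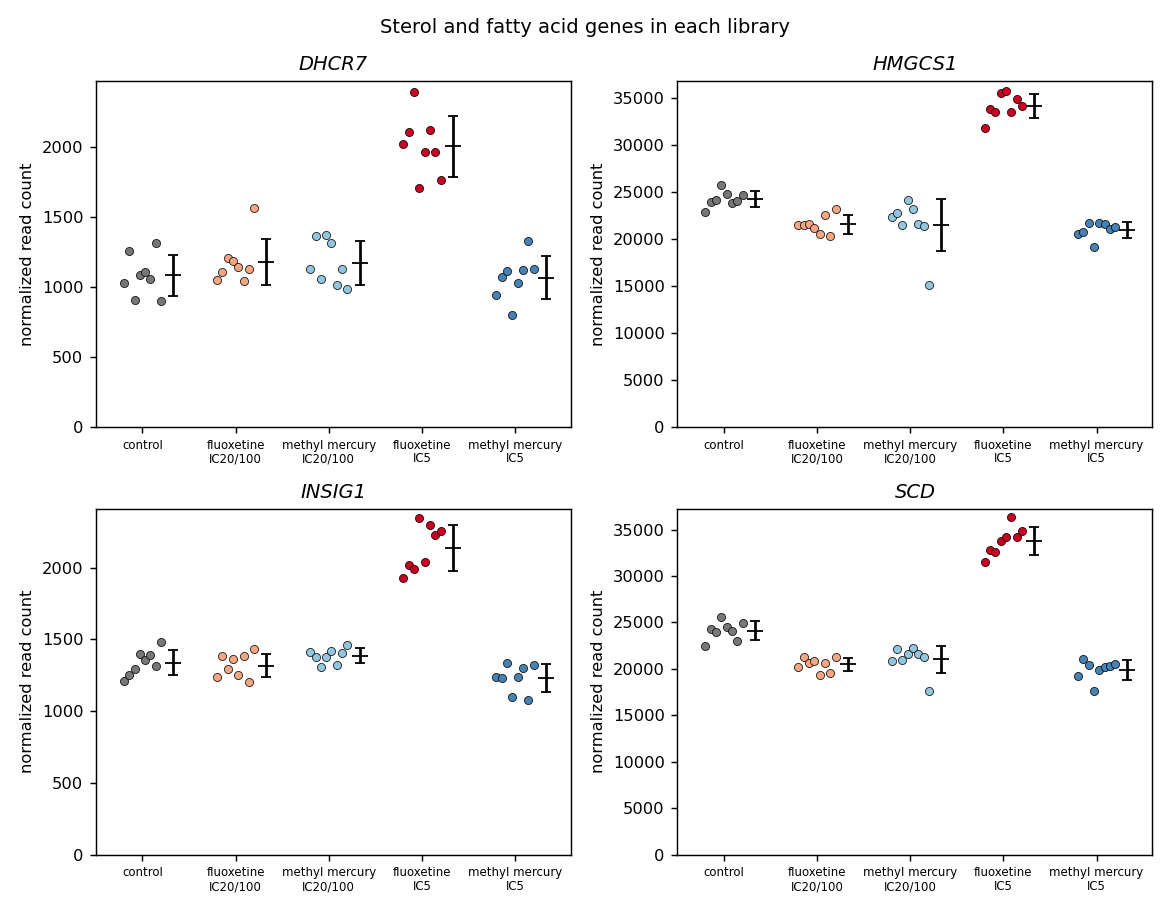
Normalized read counts (axes from 0) of DHCR7, HMGCS1, INSIG1 and SCD in controls and in both compounds at both concentrations; each point is a library and the bars are the mean ± SD of 8. The 8 fluoxetine IC5 libraries lie above the 8 methyl mercury IC5 libraries in all 4 genes.

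In fatty acid synthesis, 4 of 12 genes were higher in fluoxetine and 1 was lower (median 0.12). SCD, which makes monounsaturated fatty acids, ranged from 31510 to 36310 in fluoxetine (median 33990) and from 17640 to 21020 in methyl mercury (median 20260), with controls in between at 22510 to 25620. The difference was 0.77 ± 0.03, with the lowest adjusted p of all genes tested (1.90e-31). FADS2, another desaturase, differed by 0.43 ± 0.04. CPT1A, which admits fatty acids to mitochondria for oxidation, had 181 ± 39.1 and 271 ± 77.6 (-0.54 ± 0.13, adjusted p = 0.00251), with overlap between the groups. Lysosomal genes were higher in fluoxetine in 7 of 28 and lower in 0 (median 0.16), among them the sialidase NEU1 (0.34 ± 0.06), the peptidase TPP1 (0.30 ± 0.05) and the calcium channel MCOLN1 (0.47 ± 0.12).

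Neural progenitor genes were lower in fluoxetine in 9 of 22 and higher in 2 (median -0.17). The sum of 7 progenitor markers went the other way, at 97890 ± 3371 in fluoxetine and 89920 ± 2275 in methyl mercury (exact permutation test, two-sided, p = 0.000311, adjusted p = 0.00171 over 11 values), and most of it came from VIM, an intermediate filament gene, at 72740 and 65890 on average. In controls the progenitor sum was 99170 ± 2506. FABP7, which binds fatty acids in radial glia (chromosome 6, 122779475 to 122784074), went the other way from most of the list. It ranged from 2771 to 3124 in fluoxetine (median 2920) and from 1185 to 1513 in methyl mercury (median 1410), without overlap, and from 3226 to 3474 in controls. The difference between the compounds was 1.08 ± 0.07 (adjusted p = 3.61e-22), and methyl mercury was lower than controls by -1.27 ± 0.07. The stem cell factor SOX2 had 3138 ± 338 and 3682 ± 360 (-0.27 ± 0.03), and LIN28B, a regulator of the let-7 microRNAs, had 270 ± 35.7 and 389 ± 30.1 (-0.54 ± 0.09). ID3, an inhibitor of differentiation factors, differed by -0.39 ± 0.10, while the intermediate filament gene NES had 15620 ± 562 and 14620 ± 921 and did not pass (adjusted p = 0.193).

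Cell cycle genes were lower in fluoxetine in 12 of 28 and higher in 1 (median -0.18). The mitotic kinase gene PLK1 ranged from 713 to 885 in fluoxetine (median 790) and from 962 to 1246 in methyl mercury (median 1159), with no overlap (-0.49 ± 0.06). CENPF, a kinetochore protein, and AURKA, a spindle kinase, differed by -0.57 ± 0.10 and -0.41 ± 0.08. MKI67, the proliferation marker, had 3243 ± 186 in fluoxetine, 3971 ± 532 in methyl mercury and 3210 ± 243 in controls (-0.29 ± 0.07 between the compounds). In these bulk libraries fewer cells of a type and less RNA per cell cannot be told apart.

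Genes of the neuronal cytoskeleton were higher in fluoxetine in 9 of 20 and lower in 0 (median 0.11). GAP43, a protein of growing axons, ranged from 4492 to 5007 in fluoxetine (median 4755) and from 3537 to 3892 in methyl mercury (median 3659). No library of either group reached the range of the other, and the difference was 0.36 ± 0.05 (adjusted p = 5.57e-07). The tubulin gene TUBA1A had 113900 ± 5115 and 93510 ± 4196 (0.29 ± 0.04), and the microtubule regulator STMN4 differed by 0.43 ± 0.06. Against controls, 1 gene of the list was higher and 4 were lower with fluoxetine, and 1 was higher and 12 were lower with methyl mercury. The sum of the 8 neuron markers, given above, was higher in fluoxetine by 7774 (exact permutation test, two-sided, p = 0.000466, adjusted p = 0.00171 over 11 values). It was 90170 ± 2737 in controls, above the mean of either compound. Its part in the cytoskeletal difference was not tested. DCX and MAP2, the microtubule proteins of young and mature neurons, had 26220 ± 936 and 16130 ± 457 in fluoxetine and 23890 ± 1486 and 15820 ± 631 in methyl mercury, and neither passed (adjusted p = 0.169 and 0.827). DCX passed without the methyl mercury IC20/100 library that stood apart (0.13, adjusted p = 0.00296).

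Among mature neuron and synapse genes, 7 of 32 were higher in fluoxetine and 0 were lower (median 0.10). Against controls, 0 were higher and 5 were lower with fluoxetine, and 0 were higher and 10 were lower with methyl mercury. CACNA1B, a presynaptic calcium channel, had 1059 ± 92.8 and 819 ± 60.2 (0.38 ± 0.07). The vesicle gene SYN1 and the glutamate receptor gene GRIA1 differed by 0.38 ± 0.09 and 0.46 ± 0.12. Of 22 neurogenesis genes, 5 were higher and 2 lower (median 0.11), and 3 were higher when methyl mercury replicate 1, 2 or 5 was left out. POU4F1, a factor of sensory and habenular neurons, was higher in fluoxetine (0.28 ± 0.03). The proneural gene NEUROG1 was lower, at 120 ± 14.3 against 187 ± 30.5 (-0.63 ± 0.11), as was NEUROD1 (-0.30 ± 0.06).

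Transmitter genes were higher in fluoxetine in 5 of 17 measured and lower in 1 (median 0.24), and the 5 became 3 when only genes with values of at least 50 were tested or when only the 16 libraries were fitted. Against controls, 1 was higher and 6 were lower with fluoxetine, and 0 were higher and 8 were lower with methyl mercury. TH, the rate-limiting enzyme of catecholamine synthesis, ranged from 489 to 550 in fluoxetine (median 512) and from 230 to 389 in methyl mercury (median 339). The groups did not overlap, and both lay below the controls, at 713 to 931. The difference was 0.63 ± 0.09 (adjusted p = 1.66e-07). DBH, which turns dopamine into noradrenaline, had medians of 20.9 and 8.81, with 1 fluoxetine library at 57.5 (1.10 ± 0.21). SLC17A6, a vesicular glutamate transporter, had 1377 ± 142 and 981 ± 86.8 (0.48 ± 0.06), and the serotonin-synthesizing enzyme gene TPH2 had 39.8 ± 10.2 and 25.8 ± 5.86 (0.61 ± 0.14).

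The serotonin transporter gene SLC6A4, whose product is the target of fluoxetine, had 16.2 ± 4.90 in fluoxetine and 17.2 ± 5.63 in methyl mercury and did not pass (0.03 ± 0.22, adjusted p = 0.972). Of 26 serotonin and monoamine genes, 15 were measured, 2 were higher (13.3%) and 1 was lower (6.67%), against 4.3% and 3.99% of all genes. Leaving out methyl mercury replicate 7 reduced the 2 to 1. The adrenergic receptor gene ADRA2A ranged from 133 to 174 in fluoxetine (median 143) and from 61.3 to 95.6 in methyl mercury (median 76.6), with no overlap. Its difference was 0.91 ± 0.09, and its controls ranged from 49.5 to 72.3.

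**Figure D3:**
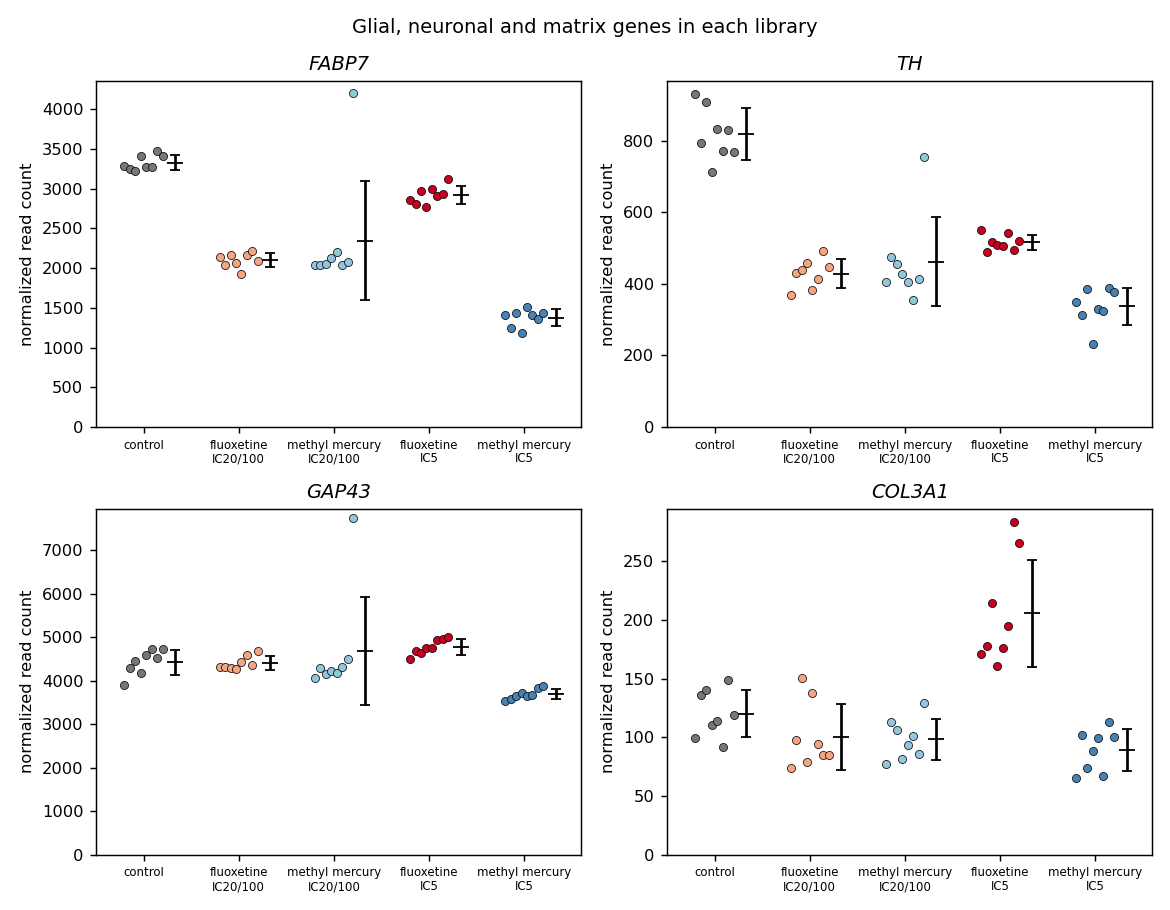
Normalized read counts (axes from 0) of FABP7, TH, GAP43 and COL3A1 in controls and in both compounds at both concentrations; each point is a library and the bars are the mean ± SD of 8. The fluoxetine IC5 and methyl mercury IC5 libraries do not overlap in any of the 4 genes, and the high point among the methyl mercury IC20/100 libraries for FABP7, TH and GAP43 is replicate 8.

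Axon guidance genes differed in both directions, with 4 of 30 higher and 6 lower in fluoxetine (median 0.06). The netrin receptor genes UNC5A and UNC5B were lower (-0.71 ± 0.13 and -0.72 ± 0.12), whereas UNC5D was higher, at 221 to 266 against 146 to 179 (0.61 ± 0.11). ROBO3, a receptor of commissural axons, had 4312 ± 360 and 3191 ± 288 (0.44 ± 0.05). Of 21 measured WNT genes, 1 was higher and 4 were lower (4.76% and 19.0%, median -0.09). The ligand gene WNT5A had 603 ± 43.8 and 850 ± 84.6 (-0.49 ± 0.09), the receptor gene FZD5 and the inhibitor gene SFRP1 differed by -0.34 ± 0.07 and -0.33 ± 0.06, and the secreted protein gene DKK3 differed by 0.31 ± 0.07. Among 12 measured retinoic acid genes, 1 was higher and 1 was lower (8.33% each, against 4.3% and 3.99% of all genes). The median was 0.02, and the lower gene was the reductase DHRS3 (-0.68 ± 0.13).

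Of 12 measured mesenchymal and pericyte markers, 5 were higher in fluoxetine and 0 were lower (median 0.39). COL3A1, a fibrillar collagen, ranged from 161 to 284 in fluoxetine (median 186) and from 65.2 to 113 in methyl mercury (median 94.0). There was no overlap, and the difference was 1.21 ± 0.13 (adjusted p = 4.08e-11). COL1A1 had 181 ± 81.1 and 73.3 ± 25.5 (1.34 ± 0.29), and COL5A1 and the proteoglycan gene LUM differed by 0.46 ± 0.10 and 1.16 ± 0.32. A shorter set of mesenchymal markers, which holds COL1A1, COL3A1 and LUM, summed to 1405 to 2387 in fluoxetine and 947 to 1543 in methyl mercury (exact permutation test, two-sided, p = 0.000466, adjusted p = 0.00171). The summed level of the whole list was 3343 to 4818 in fluoxetine and 3104 to 3670 in methyl mercury (exact permutation test, two-sided, p = 0.00295, adjusted p = 0.00812). Both sums reuse the libraries in which the 5 members were called, so neither is independent of those calls. The defining markers DCN and PDGFRB did not pass, DCN at 8.91 and 13.1 on average, with 1 fluoxetine library at 0. The part of this cell type in the result was not tested. Among 18 measured astrocyte genes, 3 were higher and 1 was lower (median 0.04): ALDOC, a glycolytic enzyme, had 922 ± 48.4 and 671 ± 87.9 (0.46 ± 0.08), CLU, a secreted chaperone, differed by 0.59 ± 0.16 (lost without methyl mercury replicate 1), and the growth factor receptor gene FGFR3 differed by -0.21 ± 0.05. GFAP (-1.11 ± 0.46) and S100B (0.32 ± 0.16) did not pass (adjusted p = 0.134 and 0.256).

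Lists tied to metal and oxidative stress are read against the 8.29% of all genes that passed, at which lists of this size hold few calls. Of 15 heat shock genes and of 7 measured among 12 metallothionein and zinc genes, 0 passed the test in limma, and 1 and 4 of them had an unadjusted p under 0.05. By edgeR and by DESeq2, 0 of either list were called higher. Without the methyl mercury IC20/100 library that stood apart, 1 heat shock gene was higher, and 1 metallothionein list gene was higher with a pseudocount of 0.5 or without methyl mercury replicate 1 or 4. Over all genes, 1171 of 20118 were higher without the IC20/100 library, against 866 of 20136 with it. The stress-induced chaperone gene HSPA1A had 1286 ± 113 in fluoxetine, 1192 ± 89.7 in methyl mercury and 1225 ± 70.9 in controls. The metal-binding genes MT2A and MT1X were low, MT2A at 26.8 ± 6.60 and 20.1 ± 5.24 (0.38 ± 0.19, adjusted p = 0.247) and MT1X at 12.4 ± 6.63 and 9.55 ± 3.72. Of 23 measured NRF2 targets and regulators, 2 were higher and 1 was lower (median 0.00), and 5 were higher without the methyl mercury IC20/100 library that stood apart. TKT, an enzyme of the pentose phosphate pathway, was among the 2 (0.26 ± 0.05), and the count became 1 without methyl mercury replicate 4. The classical targets HMOX1, NQO1, GCLM and TXNRD1 differed by 0.00 ± 0.17, -0.29 ± 0.11, -0.27 ± 0.16 and -0.26 ± 0.12, and none of these 4 passed (adjusted p = 0.996, 0.104, 0.336 and 0.177).

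Of 20 selenoprotein and thioredoxin genes, 3 were higher and 1 was lower (15.0% and 5.0%, median -0.03). SELENON and SELENOW, selenoproteins of the endoplasmic reticulum and of the cytosol, both differed by 0.30, with SE 0.04 and 0.07. SEPHS2, which supplies the selenium donor, had 735 ± 26.5 in fluoxetine and 887 ± 29.2 in methyl mercury, with no overlap (-0.28 ± 0.05). Of 21 hypoxia and glycolysis genes, 4 were higher and 1 was lower (median 0.09), among them the glucose transporter genes SLC2A1 (0.39 ± 0.06) and SLC2A3 (0.45 ± 0.07) and the oxygen sensor EGLN3 (0.68 ± 0.17). P4HA1, a collagen hydroxylase, was the lower gene (-0.29 ± 0.06). The 13 mitochondrially encoded genes held 2.22 ± 0.12% of all values in fluoxetine and 2.23 ± 0.07% in methyl mercury (exact permutation test, two-sided, p = 0.887).

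**Figure D4:**
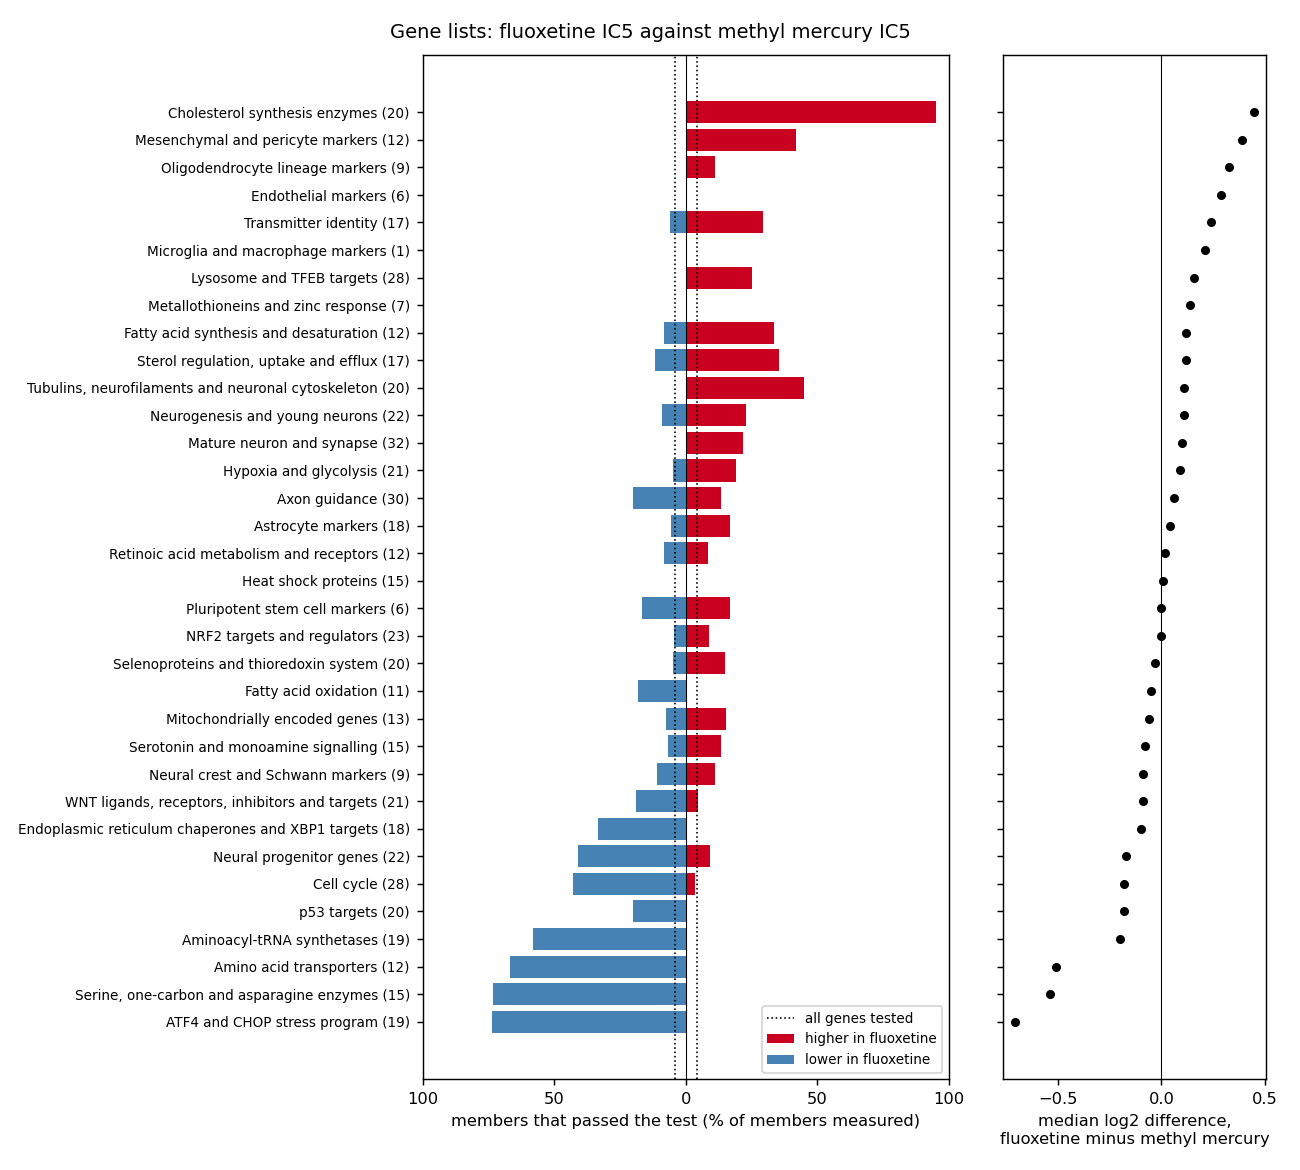
For each of 34 gene lists (number of measured members in brackets), the left panel gives the percentage of members higher (red) and lower (blue) in fluoxetine IC5 than in methyl mercury IC5, with dotted lines at 4.3% and 3.99% for all genes, and the right panel the median log2 difference. Cholesterol synthesis (19 of 20 higher) stands at the top and the ATF4 and CHOP program (14 of 19 lower) at the bottom.

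Among the largest differences outside the lists, BHLHE40, a circadian and stress-responsive repressor, ranged from 330 to 418 in fluoxetine (median 359) and from 89.9 to 168 in methyl mercury (median 146). Controls lay between, at 178 to 276, and no 2 of the 3 groups overlapped. The difference was 1.39 ± 0.17 (adjusted p = 9.90e-10). The myosin gene MYO15A, the kinesin gene KIFC2, the membrane transporter gene MFSD9, the ubiquitin ligase gene TRIM25 and the protease inhibitor gene A2M were also higher in fluoxetine, by 1.27 ± 0.24, 1.18 ± 0.26, 1.05 ± 0.27, 0.99 ± 0.26 and 0.94 ± 0.22. In each of these 5 genes the groups overlapped.

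Some leading genes varied widely within a group. TCP11L2 had a median of 551 in fluoxetine with a range of 71.5 to 844, and 7 of the 8 methyl mercury libraries lay at 51.1 to 107 while replicate 2 was at 533 (1.89 ± 0.44). THBS1, a matrix glycoprotein, ranged from 77.7 to 195 in fluoxetine and from 7.93 to 207 in methyl mercury (1.95 ± 0.47). Both kept their call in all 16 fits with a library left out. Their calls were lost when only the 16 libraries were fitted (1.81 and 1.83), and that of THBS1 also by edgeR (1.36). The galanin receptor gene GALR1 was at 11.5 to 31.6 in fluoxetine, but 3 methyl mercury libraries (replicates 3, 4 and 8) held 401, 509 and 466 and the other 5 at most 38.0. Its call (-1.86 ± 0.59, adjusted p = 0.0351) was lost when methyl mercury replicate 3, 4 or 8 or fluoxetine replicate 5, 7 or 8 was left out, with differences from -2.11 to -1.46 over all 16 such fits. SLC1A5, the glutamine transporter whose promoter is printed above, ranged from 505 to 1487 and from 1079 to 4096 (-1.92 ± 0.39), with overlap. FAM72B had 175 ± 60.9 and 356 ± 124 (adjusted p = 0.00482). It has near-identical copies in the genome, so the split of its reads is uncertain.

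To determine whether these differences were also present at the lower concentration, fluoxetine IC20/100 was compared with methyl mercury IC20/100. There 4 genes passed (0.0199%), 1 higher (0.00497%) and 3 lower (0.0149%) in fluoxetine, and 2766 had an unadjusted p under 0.05. On recovered reads edgeR called 21 and DESeq2 105. The 4 were PLXNB2, a semaphorin receptor, higher in fluoxetine by 1.00 ± 0.21, and ARRDC4, ZNF865 and NAPRT, lower by -0.23 ± 0.05, -0.28 ± 0.06 and -0.58 ± 0.12, all named after their values were seen. The count was 0 without methyl mercury IC20/100 replicate 8. It was also 0 without fluoxetine IC5 replicate 4 or methyl mercury IC5 replicate 3 or 8, and 8 without methyl mercury IC5 replicate 5. Of the 4, only ARRDC4, an arrestin-like regulator of glucose uptake, also passed at IC5, with -0.73 ± 0.05.

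The difference between the compounds at IC5 minus that at IC20/100 passed its own test in 851 genes (4.23%), 497 upward (2.47%) and 354 downward (1.76%), and in 942 without the library that stood apart. Of the 1670 genes called at IC5, 679 were among them. Of the 24 leading genes, 15 passed, and the same 15 plus THBS1 passed without that library. The 1670 and the 24 were picked by their difference at IC5, and this test reuses the IC5 values, which favours a pass. SLC7A11 had 188 ± 33.1 and 217 ± 72.2 at IC20/100, a difference of -0.10 ± 0.13 (-0.20 without that library), and the change with concentration was -2.53 ± 0.19 (adjusted p = 7.40e-18). DHCR7 had 1179 and 1172 at IC20/100 (-0.01 ± 0.09, or -0.03 without it), with a change of 0.93 (adjusted p = 7.13e-08). FABP7 had 2101 and 2348 (-0.11 ± 0.07, or 0.01 without it), with a change of 1.19, or 1.08 without the library that stood apart. Of the 20 cholesterol enzymes 19 passed this test upward, and of the 19 measured genes of the ATF4 and CHOP program 10 passed downward. Without that library the counts were 19 and 12. For SLC7A11, CHAC1, ASNS and SLC7A5 the methyl mercury mean was higher at IC5 (571, 182, 2632 and 2644) than at IC20/100 (217, 115, 1823 and 1503, or 229, 108, 1723 and 1514 without that library), and the fluoxetine mean was lower at IC5 (90.4, 69.1, 1193 and 982) than at IC20/100 (188, 93.8, 1755 and 1476).

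**Figure D5:**
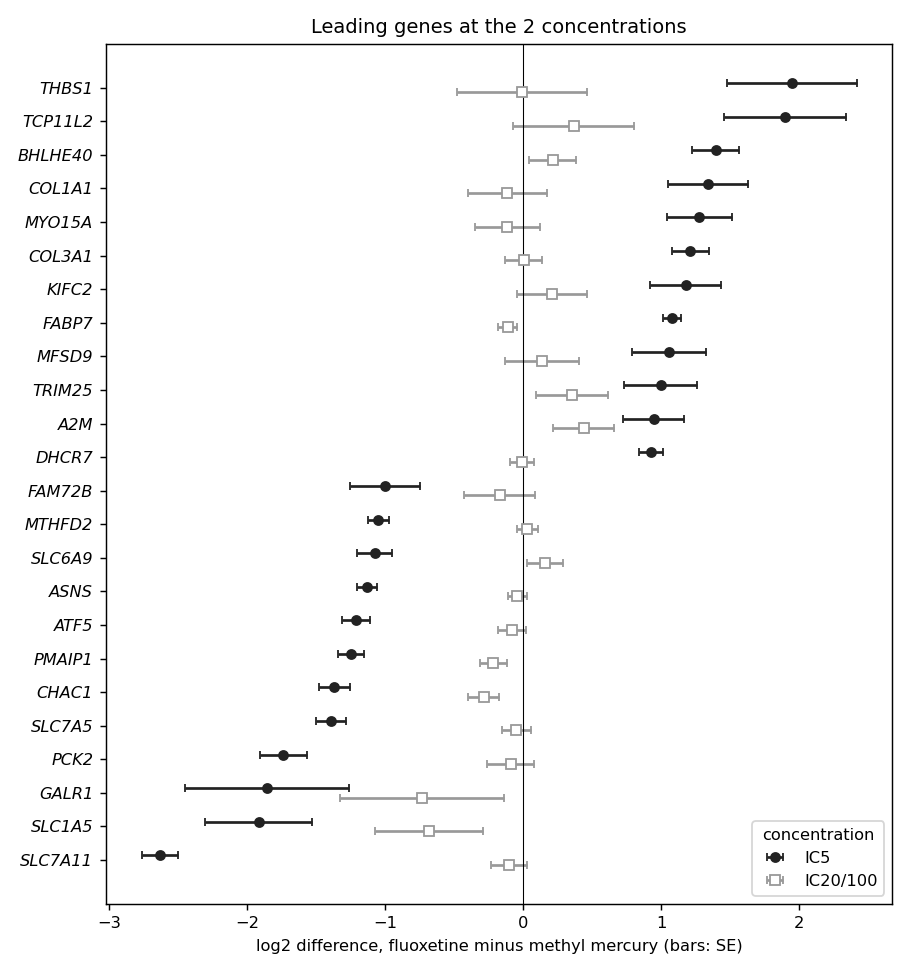
Log2 difference, fluoxetine minus methyl mercury, of the 24 leading genes at IC5 (filled circles) and at IC20/100 (open squares), with SE bars. At IC5 the differences run from -2.63 (SLC7A11) to 1.95 (THBS1), and at IC20/100 those of SLC7A11 and THBS1 are -0.10 and -0.01.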

How the data were processed

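Polyadenylated RNA of 96 libraries (12 groups of 8) was sequenced on strand-marking libraries, per the labels' protocols. The submitters' processing notes name bcl2fastq, FastQC 0.11.8, MultiQC 1.0, Salmon 1.3.0, DESeq2 1.30.0 and the genome build GRCh38, with no annotation release. The deposited values are a signal, read counts divided by 1 size factor per library, for 58434 genes. Dividing by each library's step gave whole reads for 100% of values (tolerance 0.001), and the edgeR and DESeq2 tests used these recovered reads. No deposited column was left unmapped (0 columns).

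The main test was limma 3.58.1 in R 4.3.3 on log2(value + 2), with trended moderation, over 88 day 10 libraries with group and sequencing run as terms (72 residual degrees of freedom). A gene had to reach 10 in 8 or more libraries, p-values were adjusted by Benjamini-Hochberg over all 20136 genes, and the threshold was 0.05. Summed markers and the mitochondrial share were compared by exact permutation over libraries (scipy 1.17.1). Alternatives were other pseudocounts (0.5, 10), filters (none, 50), TMM scaling, only the 16 libraries, no run term, a replicate block, edgeR 4.0.16, DESeq2 1.42.0 and each library left out.

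In data simulated on this comparison (20136 genes), 62.7% of genes changed 1.5-fold, 91% of those changed 2-fold and 95.5% of those changed 4-fold were called, and 9 unchanged genes were called. The simulation held 200 changed genes, no effect of run and no library that stood apart, so rates in the real data may differ. No pair of libraries within a group agreed within sampling noise (28 pairs each, lowest chi-square per degree of freedom 17.5 and 17.1). Named genes were the 12 largest differences each way among protein-coding genes called, at least 1.5-fold apart and with a mean of at least 100, up to 4 called members of each list, and genes fixed by name. Not all genes the rule admits are printed, and some results are not reported here. The comparison, its 34 gene lists (614 genes, all matched) and the rule were chosen with earlier results of these data known. Symbols came from a supplied name table, positions from GENCODE 29 (GRCh38), and promoters from RefSeq (GRCh38.p14).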

Additional observations from a re-analysis of the deposited data

Results flagged for a closer look

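In 123 genes and both groups (246 pairs), 19 libraries lay far from the other 7 of their group (7.72% of pairs, where chance gives about 1 in 20). In fluoxetine these were ATF5 replicate 6 at 390.8, SLC17A6 replicate 3 at 1037, MVD replicate 3 at 3265, UNC5B replicate 5 at 163.4, WNT5A replicate 3 at 509.5, DBH replicate 3 at 57.51, PDIA6 replicate 6 at 3341 and HSPA1A replicate 3 at 1538. In methyl mercury they were TRIB3 replicate 4 at 183.5, CARS1 replicate 6 at 2804, TCP11L2 replicate 2 at 532.6, THBS1 replicate 4 at 206.9, CPT1A replicate 6 at 450.1, SELENOW replicate 4 at 1134, MFSD9 replicate 1 at 551.5, GRIA1 replicate 1 at 1354, ID3 replicate 3 at 73.17, NQO1 replicate 1 at 107.8 and NES replicate 4 at 16670. All are normalized read counts.

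The difference between the compounds depended on the concentration in 15 of the 24 leading genes, by limma's test of the difference at IC5 minus that at IC20/100 (adjusted p under 0.05 over all genes). The 24 genes were picked by their difference at IC5, and this test reuses the IC5 values, which favours a pass. On the log2 scale, the difference was lower at IC5 for SLC7A11 (-2.53), PCK2 (-1.65), SLC7A5 (-1.34), SLC6A9 (-1.23) and ATF5 (-1.13). It was also lower for ASNS (-1.09), MTHFD2 (-1.08), CHAC1 (-1.08) and PMAIP1 (-1.03). The difference was higher at IC5 for COL1A1 (1.45), MYO15A (1.39), COL3A1 (1.21), FABP7 (1.19), BHLHE40 (1.18) and DHCR7 (0.93).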

How the results depend on the processing

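The number of genes called at IC5 was 1357 to 2321 under the alternatives (1670 in the report), lowest without the run term and highest without methyl mercury IC20/100 replicate 8. Leaving out 1 of the 16 libraries gave 1465 to 1629. The count at IC20/100 (4 in the report) was 7 with no filter, 0 with no run term, 41 with the replicate block, 21 by edgeR, 105 by DESeq2, 0 without methyl mercury IC20/100 replicate 8, and 0 to 8 when a library of the IC5 groups was left out; the cause was not tested. Near-zero differences changed sign. MT1X was -0.113 with a pseudocount of 0.5, -0.0895 with only the 16 libraries and -0.0394 to 0.434 with a library left out. HMOX1 was -0.00994 with only the 16 libraries, -0.0336 with no run term, -0.00195 by DESeq2 and -0.0603 to 0.0756 with a library left out. SLC6A4 was -0.0591 with no run term and -0.0616 to 0.116 with a library left out. The mitochondrial share differed by -0.0279 to 0.0151 percentage points with a library left out. Same-numbered libraries of the 2 groups did not deviate together (8 pairs, correlations -0.0069 to 0.0745, 2 of 8 best matched by their own number). With the replicate block 1831 genes were called at IC5 and 966 for the change with concentration, and no call of the 123 genes followed changed. With only the 16 libraries, THBS1 (1.83), TCP11L2 (1.81), GALR1 (-2.10), TPH2 (0.60), LUM (1.05) and SELENOP (0.59) lost their calls. Counting depth limits genes with few reads, such as SLC6A4 and the metallothioneins.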

Other observations

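The 3 genes given here lie outside the naming rule and were picked after their values were seen. FABP3, a fatty acid binding protein of muscle and neurons, had 78.9 ± 8.30 in fluoxetine IC5, 13.3 ± 6.96 in methyl mercury IC5 and 17.4 ± 5.89 in controls, with 63.96 to 89.67 against 4.93 to 23.4 between the compounds. Its difference was 2.56 ± 0.24 (limma, adjusted p = 5.77e-14), higher in fluoxetine in all 6 runs, while at IC20/100 the means were 13.8 and 16.8. ARRDC4, an arrestin-like regulator of glucose uptake, had 2307 ± 220 in fluoxetine and 3790 ± 344 in methyl mercury, with controls at 3582 ± 335 (-0.73 ± 0.05). LMX1B, a transcription factor of dopaminergic and serotonergic neurons, had 3373 ± 187, 2334 ± 148 and 2610 ± 104 in the same order (0.54 ± 0.04). In each of these 3 genes the fluoxetine and methyl mercury libraries did not overlap.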
